A study of Mus musculus with 11 samples.

Results

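Glycolysis and lactate formation are described here through 10 enzyme genes: Hk2, Gpi1, Aldoa, Tpi1, Gapdh, Pgk1, Pgam1, Eno1, Pkm and Ldha. They were chosen by symbol, all 10 were found among the 20640 genes of the deposited table, and all 10 passed the filter on low values (1 RPKM or more in at least 2 libraries), as did 11568 genes in all. Glycolysis splits glucose into pyruvate in the cytosol, and lactate dehydrogenase turns pyruvate into lactate so that the pathway can go on without oxygen. Many of its genes are textbook targets of the hypoxia-inducible factor HIF1. Quiescent muscle stem cells are known to rely more on mitochondrial oxidation and to raise glycolysis on activation, while mature muscle fibres carry high levels of several of the same enzymes and of muscle isozymes.

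The data were bulk RNA-seq values of muscle stem cells from limb muscle of Pax7-CreERT2;Rosa-YFP mice, in which tamoxifen switches on YFP in cells that express Pax7. All groups received tamoxifen by mouth (240 mg/kg for 5 days) at 12 to 14 weeks of age, and YFP+ cells were later sorted after staining for Sca-1, CD31 and CD45 to leave out other lineages. Cells of geriatric mice (over 28 months) were split by surface VCAM1, an adhesion receptor of quiescent stem cells, into VCAM1-negative (3 libraries), VCAM1-low (2) and VCAM1-high (3), with gates set on middle-aged cells. The middle-aged group (3 libraries; aged 10 to 14 months in the sample labels and 12 to 14 months in the extraction protocol) was YFP+ with no VCAM1 gate named, so comparisons with it differ in age, gate and time since labelling together. The gate names are those of the sample titles; the design text calls the lower gates by other names without saying which is which. The labels do not state that replicates came from different mice, so a p-value here covers the spread among the libraries at hand, which may be technical.

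The libraries held an estimated 19.9 to 29.8 Mreads each (M for mega), and 10395 to 11171 genes reached 1 RPKM. Vcam1 had 122, 70.4 and 48.6 RPKM in VCAM1-negative cells and 177 and 115 RPKM in VCAM1-low cells. It had 418, 188 and 263 RPKM in VCAM1-high cells and 336, 344 and 230.1 RPKM in middle-aged cells, so the VCAM1-negative libraries lay below those of the VCAM1-high and middle-aged groups, as sorted. Stem cell markers were present in every group, with 12 of 12 listed genes above 0 in at least 1 library of each and a sum of 2228 to 4602 RPKM, and Pax7 itself had 1.71 to 7.85 RPKM. The genes of the antigens stained to remove other cells had 2.55 to 66.3 RPKM (Ly6a), 0.665 to 20.5 RPKM (Pecam1) and 0 to 3.30 RPKM (Ptprc). Markers listed for other cells were present at levels that varied between libraries. Over all libraries endothelial markers summed to 22.8 to 427 RPKM and macrophage markers to 23.6 to 946 RPKM, highest in VCAM1-high replicate 3. Erythroid markers summed to 5.77 to 650.5 RPKM. Fibro-adipogenic progenitor markers reached the highest sums of these lists, 432 to 1160 RPKM, and smooth muscle and pericyte markers had 60.0 to 451 RPKM. The fibro-adipogenic sums came mostly from Dcn (24.5 to 795 RPKM), Col3a1 (6.46 to 337 RPKM) and Dpt (9.76 to 249 RPKM). Pdgfra of the same list had 0.113 to 2.37 RPKM, so the sums do not measure the share of these cells. In such bulk samples, fewer cells of a type and less RNA per cell cannot be told apart.

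The 10 enzymes together made up 0.457% to 1.13% of the summed RPKM of a library. Their sum was 2598, 3863 and 4664 RPKM in VCAM1-negative cells, 2737 and 1971 RPKM in VCAM1-low cells, 3036, 2109 and 3702 RPKM in VCAM1-high cells, and 4625, 2972 and 3686 RPKM in middle-aged cells. Each pair of groups overlapped except VCAM1-low and middle-aged, where both VCAM1-low libraries lay below all middle-aged ones. Replicates of 1 group spread about as widely as the group means. Aldoa, Gapdh, Ldha and Pkm alone held 82.7% to 89.7% of that sum. RPKM divides by gene length, so levels may be set side by side: averaged over the 11 libraries, Aldoa (996 RPKM) ranked 55 among all genes, Ldha (660.1) 88, Gapdh (623) 94 and Pkm (538) 106. Eno1 (144 RPKM) and Tpi1 (133) formed a middle tier at ranks 464 and 513, and Gpi1 (63.2), Pgam1 (56.0) and Pgk1 (49.3) a lower one at ranks 1180, 1355 and 1550. Hk2, the entry step, stood far below the others at 6.43 RPKM and rank 6911.

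The stretches before 4 of the genes are shown because these genes carry the comparisons that follow or the motif itself: Tpi1, Aldoa and Eno1 had the largest differences between VCAM1-negative and VCAM1-high cells, and Ldha had the most matches to ACGTG, the usual core of HIF1 sites. Each runs 5′ to 3′ from 250 bases before to 50 bases after a RefSeq transcription start in build GRCm38.p6, and capitals mark ACGTG on either strand (CACGT on the other), with CACGTG, the E-box that MYC binds, read as ACGTG on both strands.
Tpi1 (chr6:124814109-124814408, minus strand): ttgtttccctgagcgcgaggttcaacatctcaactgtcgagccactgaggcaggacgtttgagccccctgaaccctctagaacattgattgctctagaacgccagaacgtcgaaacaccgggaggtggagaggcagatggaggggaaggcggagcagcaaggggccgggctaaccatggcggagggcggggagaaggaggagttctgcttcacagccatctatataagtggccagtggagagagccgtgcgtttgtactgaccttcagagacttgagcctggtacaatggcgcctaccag
Aldoa (chr7:126799205-126799504, minus strand): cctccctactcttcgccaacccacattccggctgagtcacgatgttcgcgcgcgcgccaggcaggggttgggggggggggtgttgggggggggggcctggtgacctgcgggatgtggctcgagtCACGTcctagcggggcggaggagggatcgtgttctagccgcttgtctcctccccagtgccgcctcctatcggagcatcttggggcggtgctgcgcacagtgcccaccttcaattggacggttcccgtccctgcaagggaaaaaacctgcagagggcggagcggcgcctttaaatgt
Eno1 (chr4:150236458-150236757, plus strand): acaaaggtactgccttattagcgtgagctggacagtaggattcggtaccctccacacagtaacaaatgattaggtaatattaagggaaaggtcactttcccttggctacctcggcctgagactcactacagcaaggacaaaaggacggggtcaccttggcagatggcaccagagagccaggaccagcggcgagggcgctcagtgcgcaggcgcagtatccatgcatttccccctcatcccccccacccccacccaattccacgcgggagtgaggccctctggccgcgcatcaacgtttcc
Ldha (chr7:46845554-46845853, plus strand): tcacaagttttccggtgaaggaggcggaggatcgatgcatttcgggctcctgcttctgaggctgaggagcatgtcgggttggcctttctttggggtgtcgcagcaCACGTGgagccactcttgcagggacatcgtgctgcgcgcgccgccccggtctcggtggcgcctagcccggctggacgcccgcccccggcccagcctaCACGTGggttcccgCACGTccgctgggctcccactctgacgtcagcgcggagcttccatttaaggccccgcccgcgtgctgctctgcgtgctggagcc
The Aldoa window held 1 match and the Ldha window 5, counted on both strands, with 2 copies of CACGTG; the Tpi1 and Eno1 windows held none. Over all starts listed for the 10 genes, 8 of 16 windows (50%) held ACGTG, against 19.6% of 32851 promoter windows, and 1 of 16 (6.25%) held CACGTG, against 7.15%. Where a gene had several starts, the window with most matches was taken. These counts describe letters, not bound sites.

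Setting VCAM1-negative against VCAM1-high cells asks how the geriatric cells that lack VCAM1 differ from those that keep it. In this comparison Aldoa and Tpi1 averaged higher in VCAM1-negative cells, and Eno1 averaged lower there. Of the 10 enzymes 0 passed limma's test at adjusted p under 0.05 (Benjamini-Hochberg over 11568 genes), and 0% of all genes passed; at unadjusted p under 0.05 there were 2 of the 10 and 755 of all genes. The VCAM1-negative and VCAM1-high libraries overlapped for all 10, whereas 11.4% of genes had libraries that did not overlap. The median log2 fold change, on the scale of log2(RPKM + 1), was -0.05 over the 10 enzymes and -0.07 over all genes tested, with 5 enzymes above 0 and 5 below.

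Aldoa, aldolase A, which splits fructose bisphosphate and is the aldolase of muscle fibres, had 756, 1795 and 1819.5 RPKM in VCAM1-negative cells, against 856, 573 and 857 RPKM in VCAM1-high cells. VCAM1-negative replicates 2 and 3 were each above every other library of the series, and replicate 1 lay inside the VCAM1-high range. The log2 fold change was 0.85 ± 0.33 (SE; adjusted p = 0.649, limma). Without VCAM1-negative replicate 1, the lowest of its group, it was 1.27, and the call then passed (adjusted p = 0.0484, limma), as did 129 of 11568 genes. With a block for the replicate number (8 geriatric libraries) the fold change was 1.39 without that library and 0.41 without VCAM1-negative replicate 2. Tpi1, triosephosphate isomerase, which interconverts the products of aldolase, had 136, 169 and 240.1 RPKM in VCAM1-negative cells, against 120.0, 89.4 and 144 RPKM in VCAM1-high cells. VCAM1-negative replicate 1 lay below the highest VCAM1-high library, while in each of the 3 replicate numbers the VCAM1-negative library was the higher, by 0.18, 0.91 and 0.73 on the log2 scale. Tpi1 was the only one of the 10 with this pattern, which 13.4% of genes showed; its log2 fold change was 0.61 ± 0.25 (SE; adjusted p = 0.705, limma).

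Eno1, enolase 1, which forms phosphoenolpyruvate, had 102, 66.3 and 109.8 RPKM in VCAM1-negative cells, against 155, 107 and 258 RPKM in VCAM1-high cells. The lowest VCAM1-high library stood between VCAM1-negative replicates 1 and 3, so the groups overlapped by a narrow margin. The log2 fold change was -0.83 ± 0.41 (SE; adjusted p = 0.779, limma), with differences of -0.59, -0.68 and -1.23 within the replicate numbers. Geriatric libraries with the same number deviated together, and with a block for the number (8 geriatric libraries) Eno1 passed (-0.83 ± 0.14, SE; adjusted p = 0.0278, limma), 1 of 10 enzymes where 4.17% of genes passed and 3.26% passed as lower. That call was lost without any 1 of 5 of the 8 libraries, with adjusted p from 0.0525 to 0.120 in limma (VCAM1-high replicate 1 or 2, either VCAM1-low library or VCAM1-negative replicate 2), and the direction was the same in all 8 fits. Over those 8 fits the number of all genes passing ran from 19 (without VCAM1-high replicate 2) to 437. The 8 fits share most of their libraries, so a common direction over them, here and below, is no separate support. With the block in all 11 libraries the adjusted p of Eno1 was 0.223 (limma), and 0.562% of genes passed. In the geriatric block stem cell markers also differed: 11 of 12 were below 0 in VCAM1-negative against VCAM1-high cells (median -0.56) and 5 fell, Vcam1 among them, against 1 with the block in 11 libraries and 0 without a block; their part in the level of Eno1 was not tested. Eno1b, a near-identical copy listed under its own symbol, stood at 0.587 to 0.798 of Eno1 in every library, and its differences within the numbers were -0.49, -0.67 and -1.14; reads may be shared between the pair, so the level of either is uncertain.

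The other enzymes differed little beside their spread. Pgk1, phosphoglycerate kinase, which makes the first ATP of the pathway, had 31.7, 38.5 and 49.8 RPKM in VCAM1-negative cells, against 48.6, 39.2 and 63.8 RPKM in VCAM1-high cells. Pgam1, phosphoglycerate mutase, had 38.4, 42.5 and 54.3 RPKM in VCAM1-negative cells, against 45.5, 49.6 and 81.2 RPKM in VCAM1-high cells. Together with Eno1, these were the 3 enzymes that stood lower in VCAM1-negative cells within every replicate number, a pattern of 30.6% of genes, with log2 fold changes of -0.33 for Pgk1 and -0.34 for Pgam1. Gapdh, which makes NADH, had a log2 fold change of 0.35, Gpi1, the glucose phosphate isomerase, 0.22, and Ldha 0.10. Pkm, the pyruvate kinase gene, had -0.21, and Hk2, an inducible hexokinase, -0.34. Unblocked adjusted p-values of these 7 were at least 0.853 in limma.

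**Figure D1:**
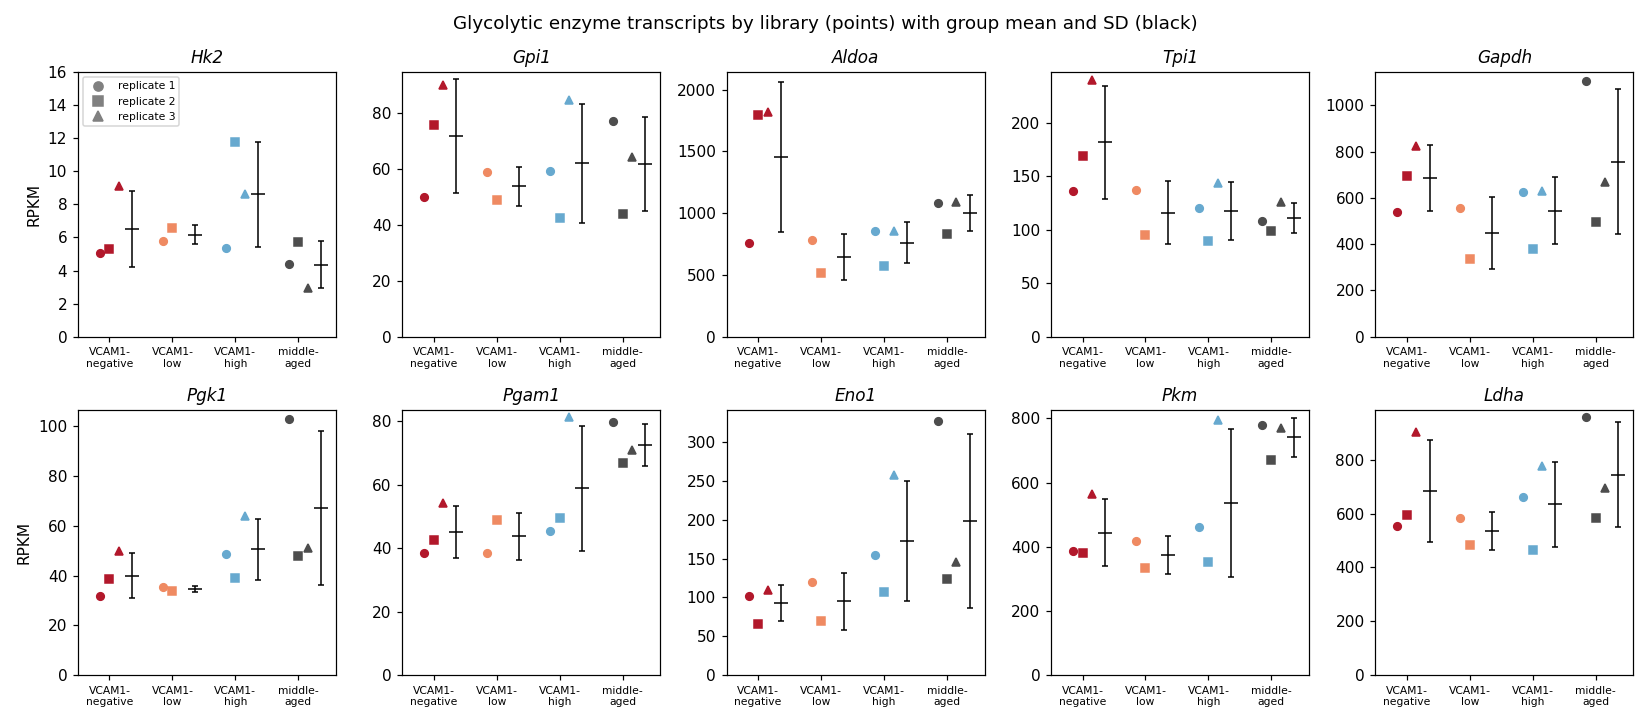
RPKM of each of the 10 enzymes (y axis, from 0) in the 11 libraries, grouped on the x axis as VCAM1-negative, VCAM1-low, VCAM1-high and middle-aged, with marker shape for the replicate number and black lines for group mean and SD. Aldoa reaches 1795 and 1819.5 RPKM in 2 of 3 VCAM1-negative libraries, and the 3 middle-aged libraries of Pkm and Pgam1 stand above those of the VCAM1-negative group.

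Markers of muscle fibres moved with the VCAM1-negative group. The 15 of 16 listed fibre markers found in the table, none at 0 in any group, summed to 796, 7861 and 6149 RPKM in VCAM1-negative cells, against 96.7, 152 and 232 RPKM in VCAM1-high cells, 83.1 and 198 RPKM in VCAM1-low cells and 262, 237 and 445 RPKM in middle-aged cells. All 15 had a log2 fold change above 0 in VCAM1-negative against VCAM1-high cells (median 4.46), and 14 passed with the geriatric block, 0 without it. Acta1, the actin of fibres, had 280.4, 3040.2 and 2254 RPKM in VCAM1-negative cells, and Ckm, muscle creatine kinase, 62.7, 479 and 597 RPKM there. In VCAM1-negative replicate 1, the lowest of the 3 in fibre markers, Aldoa (756 RPKM) was inside the range of VCAM1-high cells. The part of fibre RNA in the levels of Aldoa and Tpi1 was not tested.

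**Figure D2:**
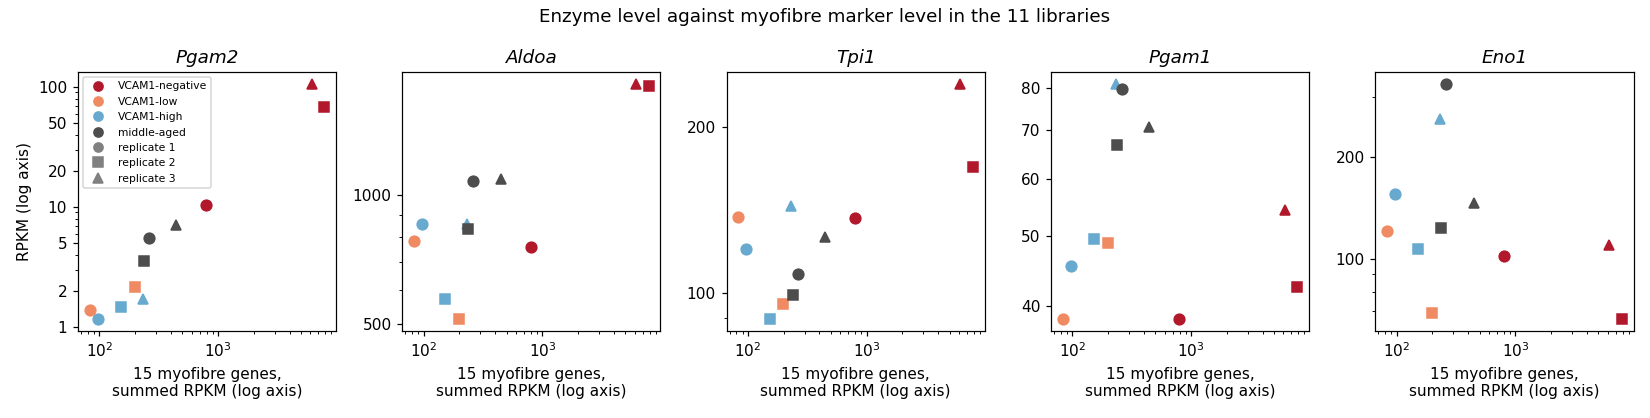
RPKM of Pgam2 (muscle isozyme), Aldoa, Tpi1, Pgam1 and Eno1 (y axes, log scale) against the summed RPKM of 15 fibre markers (x axes, log scale) in the 11 libraries, coloured by group and shaped by replicate number. The 2 VCAM1-negative libraries with 6149 and 7861 RPKM of fibre markers hold the 2 highest values of Pgam2, Aldoa and Tpi1. Eno1 and Pgam1 are not high in them.

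Isozyme ratios within a library compare enzymes of the same step. Eno3, the enolase of fibres, stood to Eno1 at 0.220, 2.73 and 2.52 in VCAM1-negative cells, at 0.0628 and 0.125 in VCAM1-low cells, at 0.0414, 0.0937 and 0.204 in VCAM1-high cells and at 0.0647, 0.0994 and 0.127 in middle-aged cells. Pgam2, the muscle mutase, stood to Pgam1 at 0.273, 1.60 and 1.96 in VCAM1-negative cells, and at 0.0211 to 0.101 in the other 8 libraries. For both pairs all 3 VCAM1-negative libraries lay above all others, replicate 1 by the smallest margin. Pfkm, the muscle phosphofructokinase, stood to Pfkp plus Pfkl at 0.1496, 0.515 and 0.566 in VCAM1-negative cells and at 0.0625 to 0.242 elsewhere, where VCAM1-negative replicate 1 was inside the range. In the fit with the geriatric block, Eno3 (2.69 ± 0.47, SE; adjusted p = 0.0289, limma) and Pgam2 (4.18 ± 0.50, SE; adjusted p = 0.0133, limma) rose in VCAM1-negative against VCAM1-high cells, 2 of 10 tested isozymes outside the enzyme list, where 0.908% of all genes passed as higher. With the block in 11 libraries Pgam2 passed (adjusted p = 0.0201, limma) and Eno3 did not (adjusted p = 0.118, limma), and without a block neither did. Leaving 1 library out of the geriatric block kept the call of Pgam2 in 4 of 8 fits and that of Eno3 in 2 of 8, with every log2 fold change above 0. Calls of both were lost without VCAM1-high replicate 2 or either VCAM1-low library, that of Pgam2 also without VCAM1-negative replicate 2, and that of Eno3 also without VCAM1-high replicate 1 or 3 or VCAM1-negative replicate 3.

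Hk1, the housekeeping hexokinase, exceeded Hk2 in every library. The ratio was 6.49, 3.51 and 3.45 in VCAM1-negative cells, 4.77 and 2.95 in VCAM1-low cells, 5.80, 1.89 and 5.52 in VCAM1-high cells, and 20.0, 7.09 and 16.4 in middle-aged cells. All 8 geriatric libraries thus lay below all 3 middle-aged ones. Ldhb, the heart-type lactate dehydrogenase, stood to Ldha at 0.0534 to 0.143 in VCAM1-negative cells, 0.139 to 0.145 in VCAM1-low cells, 0.0709 to 0.147 in VCAM1-high cells and 0.0600 to 0.103 in middle-aged cells, with overlap between VCAM1-negative, VCAM1-high and middle-aged libraries. These ratios were not tested.

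**Figure D3:**
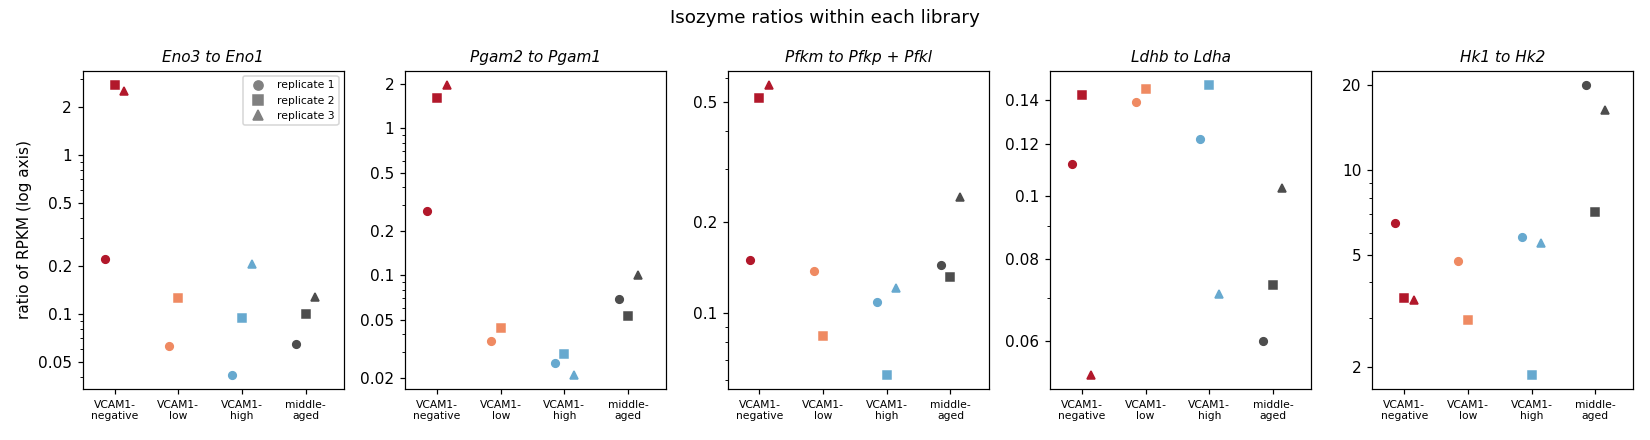
Ratio of the RPKM of 2 isozymes in the same library (y axes, log scale) for 5 pairs, with libraries grouped on the x axis as VCAM1-negative, VCAM1-low, VCAM1-high and middle-aged and shaped by replicate number. The ratios Eno3 to Eno1 and Pgam2 to Pgam1 are highest in the 3 VCAM1-negative libraries, and Hk1 to Hk2 is highest in the 3 middle-aged libraries.

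Setting VCAM1-negative geriatric cells against middle-aged cells compares groups that differ in age and in gate. Pgk1, Pgam1, Eno1 and Pkm averaged lower in VCAM1-negative cells, and Tpi1 averaged higher. None of the 10 passed limma's test, against 14.4% of genes tested; 5 of 10 had an unadjusted p under 0.05, against 3908 genes of 11568. For 4 enzymes the libraries did not overlap, Tpi1 above (18.7% of genes did so) and Pgam1, Eno1 and Pkm below (20.3%). The median log2 fold change was -0.11 over the 10 enzymes and -0.02 over all genes, with 4 enzymes above 0 and 6 below. This comparison shares its VCAM1-negative libraries with the one before and its middle-aged libraries with the next.

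Pkm had 387, 380.5 and 566 RPKM in VCAM1-negative cells, against 781, 672 and 771 RPKM in middle-aged cells. The means were 444 ± 105 RPKM in VCAM1-negative cells and 741 ± 60.3 RPKM in middle-aged cells (SD, n = 3 each), a log2 fold change of -0.76 ± 0.28 (SE; adjusted p = 0.0858, limma). Gene-level values cannot separate the M1 and M2 splice forms of Pkm. Pgam1 had 38.4, 42.5 and 54.3 RPKM in VCAM1-negative cells, against 79.7, 66.8 and 70.8 RPKM in middle-aged cells, a log2 fold change of -0.68 ± 0.23 (SE; adjusted p = 0.0699, limma), the smallest adjusted p of the 10. Without VCAM1-high replicate 3, which enters the shared estimate of spread, Pgam1 (adjusted p = 0.0342, limma) and Pkm (adjusted p = 0.0340, limma) passed. In that fit 1821 of 11568 genes passed. For Tpi1 the middle-aged libraries had 108, 98.8 and 126 RPKM, all below the lowest VCAM1-negative library given above (136 RPKM), with a log2 fold change of 0.68 ± 0.25 (SE; adjusted p = 0.0899, limma).

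Eno1 in middle-aged cells had 328, 123 and 146 RPKM, with replicate 1 far above the others and all 3 above the VCAM1-negative libraries; the log2 fold change was -0.99 ± 0.41 (SE; adjusted p = 0.120, limma). Pgk1 in middle-aged cells had 103, 47.8 and 51.0 RPKM, again with replicate 1 apart, and its lowest library was under VCAM1-negative replicate 3 (49.8 RPKM). The Pgk1 log2 fold change was -0.67 ± 0.30 (SE; adjusted p = 0.140, limma). Middle-aged replicate 1 was the highest library of the series for Gapdh, Pgk1, Ldha and Eno1. Aldoa had 1079.6, 835 and 1091 RPKM in middle-aged cells, between VCAM1-negative replicate 1 and the other two, and a log2 fold change of 0.44 in VCAM1-negative against middle-aged cells. The remaining log2 fold changes were 0.48 for Hk2, 0.21 for Gpi1, -0.09 for Gapdh and -0.13 for Ldha, with 95% intervals that span 0. Fibre markers moved here too, with 12 of 15 higher in VCAM1-negative than in middle-aged cells at adjusted p under 0.05. Of 12 stem cell markers, Vcam1 among them, 4 fell and 1, Myod1, rose. Myod1 had 664, 622 and 725 RPKM in VCAM1-negative cells, against 189, 231 and 135 RPKM in middle-aged cells. The part of these markers in the enzyme levels was not tested.

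Setting VCAM1-high geriatric cells against middle-aged cells asks what differs with age in cells that keep VCAM1, although no gate was named for the middle-aged cells. Hk2 averaged 8.60 ± 3.19 RPKM in VCAM1-high cells and 4.35 ± 1.40 RPKM in middle-aged cells (SD, n = 3 each), while Aldoa, Gapdh, Ldha and Pkm averaged lower in VCAM1-high cells. Of the 10 enzymes 0 passed limma's test, against 0.605% of genes, and 1 of 10 (Hk2) and 1724 of all genes had an unadjusted p under 0.05. Libraries of the same number deviated together here too. However, the deviations of VCAM1-high replicate 1 correlated more with middle-aged replicate 2 (0.33) than with middle-aged replicate 1 (0.21). With the number as a block again 0 of 10 passed, while 6.98% of genes did. None of the 10 had libraries that did not overlap, against 20.2% of genes. The median log2 fold change was -0.29 over the 10 enzymes and 0.04 over all genes, with 8 enzymes below 0.

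Hk2 had 5.39, 11.8 and 8.65 RPKM in VCAM1-high cells, against 4.38, 5.74 and 2.94 RPKM in middle-aged cells, and 5.06, 5.30 and 9.13 RPKM in VCAM1-negative cells. VCAM1-high replicate 1 lay below middle-aged replicate 2, yet within each number the VCAM1-high library was the higher, by 0.25, 0.92 and 1.29 on the log2 scale, a pattern of 26.1% of genes. The log2 fold change was 0.82 ± 0.30 (SE; adjusted p = 0.230, and 0.106 with the block, limma). Pkm had 462, 353 and 794 RPKM in VCAM1-high cells, where replicates 1 and 2 were below and replicate 3, the library with most macrophage markers, above all middle-aged libraries, and a log2 fold change of -0.55 ± 0.28 (SE; adjusted p = 0.383, and 0.105 with the block, limma). Gapdh had 624, 377 and 632 RPKM in VCAM1-high cells, against 1104, 497 and 669.6 RPKM in middle-aged cells. Gapdh and Aldoa stood lower in VCAM1-high cells within every number, as did 18.9% of genes, with log2 fold changes of -0.43 for Gapdh and -0.41 for Aldoa. Adjusted p was over 0.5 in limma for the 8 enzymes other than Hk2 and Pkm, and the sizes of Eno1, Tpi1 and Gpi1 were 0.16 or less on the log2 scale.

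Libraries of Ldha, which makes lactate, of Gpi1 and of Gapdh overlapped in every pair of groups, a pattern not counted over all genes. Gapdh had 538, 694 and 824 RPKM in VCAM1-negative cells and 559 and 337 RPKM in VCAM1-low cells, beside the values given above. Ldha had 555, 595 and 902 RPKM in VCAM1-negative cells, 585 and 484 RPKM in VCAM1-low cells, 661, 466 and 778 RPKM in VCAM1-high cells and 959.9, 582 and 694 RPKM in middle-aged cells. Gpi1 had 49.95, 75.8 and 90.1 RPKM in VCAM1-negative cells, 58.9 and 49.0 RPKM in VCAM1-low cells, 59.2, 42.5 and 84.7 RPKM in VCAM1-high cells and 77.1, 44.0 and 64.4 RPKM in middle-aged cells. The 95% interval of VCAM1-negative minus VCAM1-high ran from -0.48 to 0.69 for Ldha and from -0.44 to 0.88 for Gpi1. An F test over the 4 groups in limma passed for 0 of the 10 enzymes, against 3.32% of genes. In that test Aldoa, Pkm and Pgam1 had an unadjusted p under 0.05, as did 2535 of all 11568 genes.

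**Figure D4:**
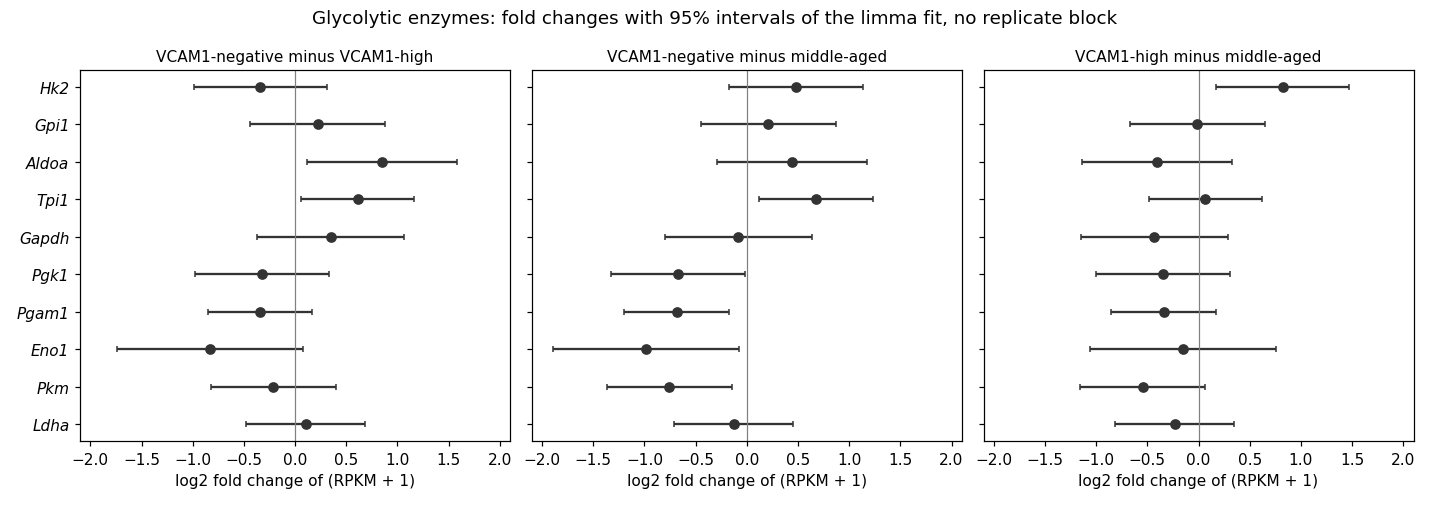
Log2 fold change of (RPKM + 1) on the x axes with its 95% interval for each of the 10 enzymes, for VCAM1-negative minus VCAM1-high, VCAM1-negative minus middle-aged and VCAM1-high minus middle-aged, from limma without a replicate block. Intervals clear 0 for Aldoa and Tpi1 in the first panel, for Tpi1, Pgk1, Pgam1, Eno1 and Pkm in the second and for Hk2 in the third, and no adjusted p is under 0.05.

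The VCAM1-low group holds 2 libraries. Its enzyme levels were the lowest group means for 7 of the 10, a count not taken over all genes. Against VCAM1-high cells all 10 were below 0 (median log2 fold change -0.33), as were 7456 of 11568 genes (median -0.09). Against middle-aged cells 8 were below 0 (median -0.69), beside 6249 of all genes (median -0.05). In VCAM1-negative against VCAM1-low cells 9 were above 0 (median 0.28), beside 6197 of all genes (median 0.02). Against middle-aged cells Pkm had 418 and 333 RPKM in VCAM1-low cells, below all 3 middle-aged libraries (log2 fold change -0.99 ± 0.31, SE; adjusted p = 0.0873, limma). Of the 10 enzymes, 5 (Aldoa, Pgk1, Pgam1, Eno1 and Pkm) lay wholly below the middle-aged libraries (24.9% of genes) and Hk2 wholly above (19.9%), and 0 passed, against 4.11% of genes; Pgam1, Pgk1 and Pkm had an unadjusted p under 0.05, as did 3056 genes. Without VCAM1-high replicate 3 in the fit Pkm passed (adjusted p = 0.0328, limma), as did 802 of 11568 genes. Against VCAM1-high cells Pgk1, at 35.3 and 33.7 RPKM in VCAM1-low cells, was the enzyme whose libraries did not overlap (13.1% of genes lay lower in this way). In VCAM1-negative against VCAM1-low cells Aldoa had a log2 fold change of 1.09 ± 0.37 (SE, adjusted p = 0.9999, limma). It passed at 1.51 (adjusted p = 0.0311, limma) without VCAM1-negative replicate 1, the lowest VCAM1-negative library, as did 117 of 11568 genes. In VCAM1-negative against VCAM1-low cells 0 of 10 had libraries that did not overlap, against 10.9% of genes. No enzyme passed with all libraries in either comparison, nor did any gene (0%), with 337 genes at unadjusted p under 0.05 in VCAM1-low against VCAM1-high and 217 in VCAM1-negative against VCAM1-low.

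Genes around the 10 enzymes were read from lists of the pathway's inputs, control and exits. Of all genes tested, 7.06% passed as higher and 7.38% as lower in VCAM1-negative against middle-aged cells; the counts of each list stand beside these shares, and no list was tested against them. In VCAM1-negative against middle-aged cells, 2 of 10 tested other isozymes rose, Pgam2 (log2 fold change 2.83, adjusted p = 0.0197, limma) and Bpgm (0.60, adjusted p = 0.0338, limma), which makes the bisphosphoglycerate of red cells. The 3 tested erythroid markers were above 0 in the same comparison (median 3.28; 0 passed), with sums of 194 to 650.4 RPKM in VCAM1-negative cells and 5.77 to 165 RPKM in middle-aged cells, and their part in the level of Bpgm was not tested. Of 8 tested glucose and lactate carriers 2 rose: Slc2a4, the insulin-responsive glucose carrier GLUT4 (1.38, adjusted p = 0.0166, limma), with 4.80, 11.9 and 6.49 RPKM in VCAM1-negative cells against 1.75, 2.097 and 2.68 RPKM in middle-aged cells, and Slc16a1, a lactate carrier (0.85, adjusted p = 0.0439, limma). Of 13 control genes 2 rose: Pdk4, which shuts pyruvate out of mitochondrial oxidation (1.54, adjusted p = 0.0247, limma), and Myc, a transcription factor that drives glycolytic genes (0.82, adjusted p = 0.0289, limma). Pdk4 had 372, 176 and 139.9 RPKM in VCAM1-negative cells, against 86.1, 73.2 and 57.7 RPKM in middle-aged cells.

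Among 16 tested HIF1 targets outside glycolysis 4 rose and 1 fell. Bnip3, a mitophagy receptor, had 51.4, 141 and 56.4 RPKM in VCAM1-negative cells, against 20.7, 15.7 and 15.1 RPKM in middle-aged cells (2.06, adjusted p = 0.0104, limma), and all VCAM1-negative libraries were higher. Egln3, an oxygen sensor, Ankrd37 and Ero1a, an oxidase of protein folding, rose by 1.29, 1.02 and 0.69, and Car12, a carbonic anhydrase, fell by 1.88 on the log2 scale. The same 16 genes had a median of 0.31 and the 10 enzymes one of -0.11. In the side branches, of 6 tested pentose phosphate genes Taldo1 (-1.27) and Rpe (-0.75) fell, with a list median of -0.46, and of 13 tricarboxylic acid cycle genes Fh1, fumarase (-1.06), and Suclg1, a succinyl-CoA ligase subunit (-0.99), fell, with a median of -0.43. Pcx, pyruvate carboxylase, was the 1 of 5 tested gluconeogenic genes that rose (0.91, adjusted p = 0.0217, limma). No gene of the pyruvate dehydrogenase list (7 tested) or the glycogen list (13 tested) passed.

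**Figure D5:**
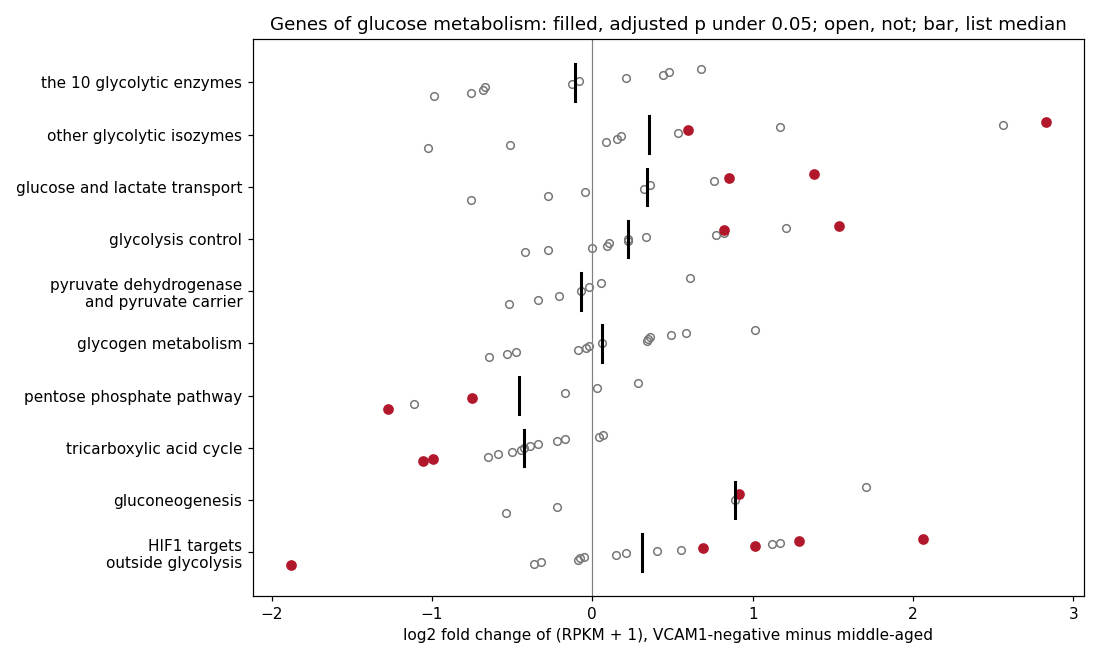
Log2 fold change of (RPKM + 1), VCAM1-negative minus middle-aged, on the x axis for the tested genes of 10 lists (rows), with filled points at adjusted p under 0.05, open points otherwise and a bar at the list median. None of the 10 enzymes is filled, and filled points lie right of 0 in the transport and control lists and left of 0 in the pentose phosphate and tricarboxylic acid lists.

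In VCAM1-high against middle-aged cells no gene of these lists passed without the block. With the block Slc16a1 (0.75, adjusted p = 0.0333, limma), Pdk4 (1.11, adjusted p = 0.0115, limma), Myc (0.65, adjusted p = 0.0340, limma), Bnip3 (1.47, adjusted p = 0.0225, limma) and Ero1a (0.50, adjusted p = 0.0458, limma) rose in VCAM1-high cells. Taldo1 (-0.79), Fh1 (-0.72) and Car12 (-1.57) fell with the block. In that fit 4.17% of all genes passed as higher and 2.81% as lower. Neutrophil markers moved with this comparison: all 5 tested were above 0 (median 1.53, and 3 rose with the block). The list summed to 2.22 to 51.7 RPKM in VCAM1-high cells and 0 to 0.737 RPKM in middle-aged cells, where 4 of 7 were at 0. The 5 tested reached 1 RPKM in geriatric libraries alone, so the filter on low values favoured this direction. All 8 tested macrophage markers were above 0 (median 0.78, 0 passed), but their sums overlapped and were highest in replicate 3 of each group. The sums were 33.1, 37.6 and 946 RPKM in VCAM1-high cells and 39.3, 23.6 and 158 RPKM in middle-aged cells. The part of white blood cells in the changes was not tested. In VCAM1-negative against VCAM1-high cells, the geriatric block gave Slc2a4 (1.15, adjusted p = 0.0178, limma) and Ankrd37 (0.61, adjusted p = 0.0350, limma) as risen and Pdk3, a pyruvate dehydrogenase kinase (-0.52), and the pentose phosphate gene Pgls (-0.54) as fallen, where 4.17% of all genes passed. With the block in 11 libraries none of these 4 passed (adjusted p from 0.0522 for Slc2a4 to 0.240 for Ankrd37, limma). When each library was left out of the geriatric block in turn, Slc2a4 passed in 3 of 8 fits and the other 3 genes in 0 of 8, with each gene's direction the same throughout. The call of Slc2a4 was lost without VCAM1-high replicate 1 or 2, either VCAM1-low library or VCAM1-negative replicate 2. Fibre markers were high in the same VCAM1-negative libraries, and their part in the levels of Pgam2, Eno3 and Slc2a4, genes that fibres express, was not tested.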

How the data were processed

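The table deposited by the authors gives RPKM, that is reads normalized for length of the gene and size of the library, for 20640 gene symbols in 11 libraries. Per the labels' protocols, libraries were made with the SMART-Seq v4 kit for low input and read from both ends. Per the submitters' processing notes, the tools were STAR 2.7.5b, Bowtie2 2.1.0, SAMtools 0.1.19 and cutadapt 3.1, with build GRCm39. How reads were counted, with which annotation and gene lengths, and what was done with reads that map to several places was not given in the sources used. Such reads matter for enzymes with processed pseudogenes (Gapdh, Pgk1, Eno1 and others).

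The log2(RPKM + 1) values of 11568 genes (at least 2 libraries with 1 RPKM or more) entered 1 model of 4 group means with a variance trend, fitted by limma 3.58.1 under R 4.3.3. Fold changes on this scale understate changes of low genes. A gene passed at a Benjamini-Hochberg adjusted p under 0.05. Depth was estimated from the steps of low RPKM values (0.1 or less) in 3428 genes with 1 transcript. Between 63.5% and 72.4% of these values lay within 0.1 of a whole read. The lengths came from another annotation, so no count test was run.

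Same-numbered libraries deviated together, with correlations of their deviations from the group means of 0.41, 0.58 and 0.40 in VCAM1-negative and VCAM1-high cells and of 0.21, 0.33 and 0.55 in VCAM1-high and middle-aged cells. Among VCAM1-high and middle-aged libraries of different numbers the correlations ran from -0.48 to 0.33, so the number pairs these groups only in part. The labels state no pairing, so the block is an alternative. The 4 promoter windows were copied from RefSeq. The enzymes, lists and tests were chosen with earlier results of these data known. Named pathway genes are up to 4 per list with the smallest adjusted p in a main comparison.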

Additional observations from a re-analysis of the deposited data

How the results depend on the processing

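Every enzyme was refitted with a pseudocount of 0.1, no filter, 2 other scalings, a replicate block and each library left out; 2 alternatives (without the number 3 libraries, and each library left out of the geriatric block) were chosen after seeing the data. Within a comparison where an enzyme passed in some fit, its direction was the same in every fit of that comparison. Such enzymes were picked for passing and the fits share most libraries, so this agreement is no separate support. The same sign in every fit was seen for 7 of 10 enzymes in VCAM1-negative against VCAM1-high (not Gpi1, Ldha or Pkm), 7 in VCAM1-negative against middle-aged (not Gapdh, Gpi1 or Ldha) and 6 in VCAM1-high against middle-aged (not Eno1, Gpi1, Pgk1 or Tpi1). For VCAM1-low it was 8 against middle-aged and 6 against VCAM1-high, and it was 6 for VCAM1-negative against VCAM1-low.

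With the replicate block in 11 libraries, whose numbers do not pair VCAM1-negative with middle-aged cells (correlations -0.02, 0.03 and 0.08), 4 enzymes passed there (Tpi1, Pkm, Pgam1 and Eno1, where 31.6% of genes did), 1 in VCAM1-low against middle-aged (Pkm, 15.8%) and 1 across groups (Pkm, adjusted p = 0.0484 in limma's F test, 17.5%). The block in the 8 geriatric libraries called 1 enzyme in VCAM1-negative against VCAM1-high (Eno1) and, without VCAM1-negative replicate 1, Aldoa and Tpi1 as well. Genes passing moved as follows. In VCAM1-negative against VCAM1-high (0) they were 22 at pseudocount 0.1, 13 at equal sums, 16 at median ratios, 65 with the block of 11, 482 with the geriatric block and 2 without number 3. In VCAM1-high against middle-aged (70) they were 20 without a filter and 807 with the block. In VCAM1-negative against middle-aged (1671) they were 870 without a filter, 3656 with the block and 568 without number 3. In VCAM1-low against middle-aged (475) they were 104, 1827 and 234 under the same settings, and in VCAM1-low against VCAM1-high (0) 1 with the geriatric block. The cause of these shifts was not tested.

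Leaving 1 library out of the geriatric block gave 19 to 437 genes in VCAM1-negative against VCAM1-high, in place of 482: 19 without VCAM1-high replicate 2, 25 without either VCAM1-low library, 39 without VCAM1-negative replicate 2, 100 without VCAM1-high replicate 1, 312 without VCAM1-negative replicate 1, and 436 and 437 without VCAM1-high or VCAM1-negative replicate 3. Leaving out 1 library with no block gave 0 to 129 genes in VCAM1-negative against VCAM1-high, 17 to 238 in VCAM1-high against middle-aged, 340 to 1821 in VCAM1-negative against middle-aged, 1 to 802 in VCAM1-low against middle-aged, 0 to 117 in VCAM1-negative against VCAM1-low and 0 to 0 in VCAM1-low against VCAM1-high. Enzymes passing ranged from 0 to 2 in VCAM1-negative against middle-aged, and from 0 to 1 in VCAM1-negative against VCAM1-high, in VCAM1-negative against VCAM1-low, in VCAM1-low against middle-aged and across groups. With 2 or 3 libraries a group, intervals of 95% span about 1 to 2 log2 units for each enzyme, which limits the differences that could be detected.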

Other observations

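The 5 genes whose levels were most like the mean of the 10 enzymes over the 11 libraries were Tmem63b (Pearson r = 0.951), Got2 (0.925), Nat10 (0.924), Bckdk (0.922) and Atpaf2 (0.921), ranked by the correlation of log2(RPKM + 1) with the mean z-score of the enzymes among 7270 genes averaging 5 RPKM or more. Got2, the mitochondrial aspartate transaminase, had 43.5, 59.8 and 77.8 RPKM in VCAM1-negative cells, 44.6 and 38.4 RPKM in VCAM1-low cells, 59.9, 46.6 and 79.9 RPKM in VCAM1-high cells and 115, 66.6 and 81.3 RPKM in middle-aged cells. Bckdk is the kinase of branched-chain ketoacid dehydrogenase. The libraries share groups and numbers, so these values are a description. In VCAM1-low against middle-aged cells, Bnip3 rose by 1.73 on the log2 scale (adjusted p = 0.0484, limma), and Fh1 (-1.29) and Suclg1 (-1.24) fell.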
